A study of Mus musculus with 24 samples.

Results

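The autophagy machinery was followed as 35 mouse genes, of 57126 genes in the count files, across the cerebellum and the hippocampus of mice with and without Npc1. The members were taken from a list of symbols, and all 35 were matched by gene ID. By role they were 5 genes of the ATG8 family, 4 cargo receptors, 5 subunits of the ULK initiation complex, 5 genes of the class III PI3K complexes, 5 PI3P effectors and lipid suppliers, 7 conjugation enzymes and 4 genes of fusion with the lysosome. The mice were Npc1-/- and Npc1+/+ littermates (strain BALB/cNctr-Npc1m1N/J), and the germline allele removes NPC1, the cholesterol exporter of the lysosome, from every cell. One group was Npc1+/+ given vehicle (PBS:PEG400), a further group was Npc1-/- given the same vehicle, and the last was Npc1-/- given dipyridamole at 30 mg/kg, a drug that blocks phosphodiesterases and the uptake of adenosine. Injections were intraperitoneal, 5 days a week from postnatal day 28, and no Npc1+/+ mouse received dipyridamole. Each group held 4 mice, and each mouse gave a cerebellar and a hippocampal library, 24 in all. The Npc1+/+ mice were female and 65 days old. The Npc1-/- mice were 63 days old, with 1 female of 4 in the vehicle group and 2 of 4 in the dipyridamole group, so that age and genotype cannot be told apart.

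Autophagy encloses cytoplasm in a double membrane, the autophagosome, and delivers it to the lysosome for breakdown. The ULK kinase complex starts the process, the class III PI3K complex makes the lipid PI3P at the forming membrane, and lipid transfer proteins enlarge it. A ubiquitin-like conjugation system attaches ATG8 proteins (the LC3 and GABARAP families) to the membrane, cargo receptors tie ubiquitinated cargo to ATG8, and SNAREs with the HOPS tether fuse the vesicle with the lysosome. Neurons depend on this pathway, and in Niemann-Pick type C disease the fusion and clearance steps are known to be impaired. RNA levels, as measured here, do not report flux through the pathway.

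The libraries held 1833609 to 11590081 counts, with a median of 7979867, and the shallowest was the cerebellum of Npc1-/- vehicle replicate 2. Levels are given as CPM, the counts of a gene per 1000000 of the TMM-adjusted library size. Npc1 lay at 102 to 112 CPM in Npc1+/+ cerebellum and 60.5 to 95.1 CPM in Npc1+/+ hippocampus, and at 13.9 to 39.3 CPM in every Npc1-/- library of either tissue. Markers placed the tissues as labelled: 8 cerebellar markers summed to at least 3817 CPM in cerebellum and at most 66.6 CPM in hippocampus. The 8 hippocampal markers summed to at most 280 CPM in cerebellum. They summed to 1245 to 1349 CPM in Npc1+/+ hippocampus and to 525 to 1500 CPM in treated hippocampus. Choroid plexus content varied widely between libraries, its 8 markers summing to 58.8 to 3021 CPM in cerebellum and 79.7 to 7850 CPM in hippocampus. Cell type markers differed between genotypes too. Of 12 microglial markers, 11 could be tested in cerebellum, and all 11 rose in Npc1-/- vehicle mice, from a sum of 210.2 to 232 CPM to 1149 to 1295 CPM (C1qa was at 0 counts in both groups). Of 10 Purkinje cell markers, all 10 fell there, from a sum of 6228 to 7165 CPM to 679 to 1105 CPM. In hippocampus 11 of 12 myelin markers fell, from a sum of 5048 to 6149 CPM to 1192 to 1843 CPM, and 7 of 11 tested microglial markers rose. The part of these shifts in the autophagy results was not tested, and in bulk tissue fewer cells of a type and less RNA per cell cannot be told apart.

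Of the 35 members, 32 had enough counts to be tested in each comparison. Gabarapl2, which encodes an ATG8 protein, had no count in any library. Map1lc3b, the LC3B gene, had 12 counts over all 24 libraries and Rab7, the late endosomal GTPase, had 16. The panel reads a single short amplicon for each gene, and these values say nothing of whether the genes are expressed. Atg3 and Atg10 were low as well, with 560 and 596 counts in all and no more than 5.10 and 5.85 CPM in any library. The counts ignored strand, and 9 members share exon bases with an antisense gene that has counts. Among them are Sqstm1 with Mrnip, Becn1 with Cntd1 and Atg2b with Gskip. Of the members with too few counts, Map1lc3b shares bases with Zcchc14 (10879 counts) and Rab7 with Gm5577 (287 counts). Reads from such shared bases cannot be told apart, and the part of this overlap in the low counts was not tested.

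Loss of Npc1 in the cerebellum went with a higher level of 2 members and a lower level of 1. Optn, the gene of the cargo receptor optineurin, rose by 0.64 ± 0.19 (log2 fold change, SE), and Stx17, the gene of the SNARE syntaxin 17 that fuses autophagosomes with lysosomes, by 0.75 ± 0.20. Ambra1, which encodes a partner of the PI3K complex, changed by -0.66 ± 0.18. The adjusted p by edgeR's quasi-likelihood test, over 12921 genes, was 0.0358 for Optn, 0.0240 for Stx17 and 0.0249 for Ambra1. These 3 of 32 tested members, 2 higher and 1 lower, stood beside 9.95% of all tested genes at the same threshold (5.91% higher and 4.04% lower), so the share of called members was near the background. The 32 members had a median log2 fold change of -0.09, against 0.01 over all tested genes. Of the members 13 were above 0 and 19 below, beside 50.7% of all tested genes above 0. These counts include 5 members for which no direction is read, named with the sex term below.

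Optn (ENSMUSG00000026672.12, GRCm39 chromosome 2, 5025453 to 5068862, minus strand) stood at 36.6, 37.1, 44.2 and 30.4 CPM in the 4 Npc1+/+ cerebella and at 52.3, 52.2, 53.8 and 63.6 CPM in the 4 Npc1-/- vehicle cerebella. The groups did not overlap, and the fourth Npc1-/- mouse lay apart above the other 3 of its group. The means were 37.1 ± 5.64 and 55.5 ± 5.45 CPM (SD, n = 4). Stx17 (ENSMUSG00000061455.14, GRCm39 chromosome 4, 48124915 to 48186507, plus strand) stood at 25.2, 24.9, 23.8 and 21.8 CPM in Npc1+/+ and at 27.9, 27.5, 38.7 and 38.6 CPM in Npc1-/- vehicle mice. Again no library of one group reached the other, but 2 of the 4 Npc1-/- libraries lay close to the highest Npc1+/+ library. Ambra1 (ENSMUSG00000040506.17, GRCm39 chromosome 2, 91560479 to 91749194, plus strand) stood at 105, 109, 105 and 135 CPM in Npc1+/+ and at 81.8, 90.5, 70.5 and 98.6 CPM in Npc1-/- vehicle mice. Its groups did not overlap either, and the fourth Npc1+/+ mouse lay apart above the other 3 and raised the mean of its group.

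**Figure D1:**
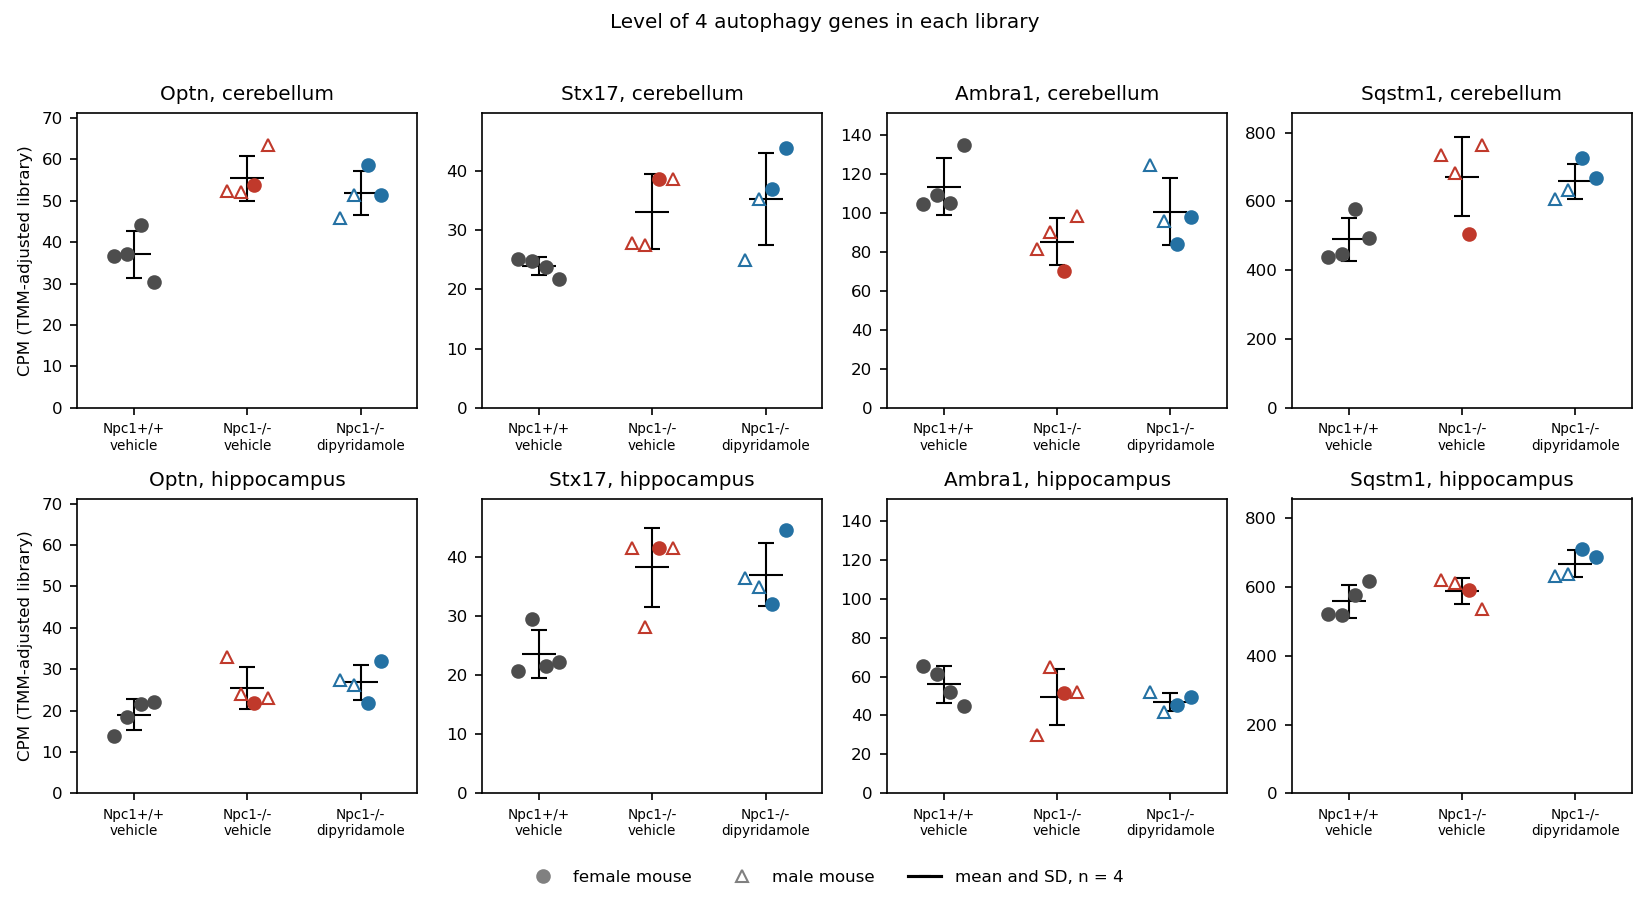
Level of Optn, Stx17, Ambra1 and Sqstm1 in CPM (y axis, from 0) in each of the 24 libraries, by group, with cerebellum above and hippocampus below. Filled circles are female and open triangles male mice, and bars give the mean and SD of 4 mice. In cerebellum the Npc1-/- vehicle libraries lie above the Npc1+/+ libraries for Optn and Stx17 and below them for Ambra1, while the Sqstm1 groups overlap through 1 female Npc1-/- mouse at 506 CPM.

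The fit adjusts for sex, which was estimated from the Npc1-/- mice alone, so a fitted value is not the plain ratio of means. That ratio, in log2, was 0.58 for Optn, 0.47 for Stx17 and -0.41 for Ambra1. For 5 of the 32 members, none of them called, the fitted change and the ratio of means had opposite signs, so no direction is read for them. The ratios were 0.04 for Tax1bp1, 0.19 for Wipi1, -0.15 for Atg5, -0.15 for Atg16l1 and 0.22 for Atg10, whose fitted values are given with their roles. Without the sex term Optn kept its call (adjusted p 0.00918), Stx17 and Ambra1 did not (0.0718 and 0.0671), and Sqstm1, Rb1cc1 and Atg3 passed instead. No member passed without Npc1-/- replicate 3, the female of its group (adjusted p 0.122 for Optn, 0.141 for Stx17 and 0.213 for Ambra1), without Npc1+/+ replicate 4, or with only these groups in the fit. Optn was also lost, among other settings, without Npc1+/+ replicate 1 or 2 or Npc1-/- replicate 4, and Stx17 without Npc1+/+ replicate 3. Of 17 alternatives Optn passed in 8, Stx17 in 10 and Ambra1 in 11, so the Optn call failed in more settings than it held. With female mice only, a setting chosen after seeing the data, 4 Npc1+/+ mice stood against 1 Npc1-/- vehicle mouse, which has no spread of its own and is assumed to vary like the Npc1+/+ and treated females in the fit. The changes were then 0.53 ± 0.22, 0.68 ± 0.22 and -0.70 ± 0.22 for Optn, Stx17 and Ambra1 (adjusted p 0.159, 0.0600 and 0.0567).

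The other cargo receptors did not pass. Sqstm1, the gene of p62, which carries ubiquitinated protein to ATG8, stood at 437, 448, 577 and 495 CPM in Npc1+/+ and at 734, 682, 506 and 765 CPM in Npc1-/- vehicle cerebellum. The 3 male Npc1-/- mice were above every Npc1+/+ mouse and the female was among them, with a fitted log2 fold change of 0.36 ± 0.19 and an adjusted p of 0.250. Nbr1, a receptor related to p62, had 0.01 ± 0.17, and Tax1bp1, a receptor that also recruits the initiation complex, had -0.20 ± 0.19.

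Among the genes of initiation, Ambra1 was the only call, and most fitted values lay below 0, while 50.7% of all tested genes lay above 0. Whether these genes share a direction was not tested. Of the ULK complex, 4 of 5 subunits were below 0 and none passed the adjusted p. Rb1cc1, the gene of the scaffold FIP200, ran from 17.1 to 24.4 CPM in Npc1+/+ to 10.0 to 18.9 CPM in Npc1-/- vehicle mice (-0.71 ± 0.27, adjusted p 0.109). Atg13, the adaptor that links the kinase to FIP200, ran from 27.2 to 39.4 to 18.2 to 27.1 CPM without overlap (-0.57 ± 0.22, adjusted p 0.123). The kinase genes differed in sign, Ulk1 at 0.18 ± 0.15 and Ulk2 at -0.49 ± 0.22, and Atg101, which stabilises Atg13, had -0.20 ± 0.23. All 5 genes of the PI3K complexes had values below 0. Besides Ambra1 these were the lipid kinase gene Pik3c3 (-0.29 ± 0.22), the beclin gene Becn1 (-0.06 ± 0.22), Atg14 of the autophagosomal complex (-0.45 ± 0.22) and Uvrag of the endosomal complex (-0.23 ± 0.30), none of which passed.

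No ATG8 gene passed in the cerebellum, and the 3 that could be tested did not share a sign. Map1lc3a, of the LC3 branch, had -0.55 ± 0.27, and Gabarap and Gabarapl1, of the GABARAP branch, had 0.41 ± 0.27 and 0.32 ± 0.16. Within the Npc1-/- vehicle group replicate 2, the shallowest library, had the highest Map1lc3a (215 CPM, the others 92.6 to 124) and the lowest Gabarap (398 CPM, the others 667 to 873). Of the lipid supply genes, Atg2b, a lipid transfer protein gene, was lower in every Npc1-/- vehicle library (107 to 144 CPM) than in any Npc1+/+ library (155 to 174 CPM), and its paralog Atg2a was higher in every one (132 to 147 against 112 to 128 CPM). With sex in the fit neither passed (Atg2b -0.13 ± 0.17, Atg2a 0.10 ± 0.17). The PI3P-binding genes Wipi1 (-0.21 ± 0.23) and Wipi2 (-0.01 ± 0.17) and the scramblase gene Atg9a (-0.01 ± 0.22) did not pass.

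The conjugation enzymes held no call. Atg3, the enzyme that attaches ATG8 to lipid, ran from 3.80 to 5.10 CPM in Npc1+/+ to 2.15 to 2.87 CPM in Npc1-/- vehicle mice, without overlap but on 4 to 49 counts a library over the series (-0.81 ± 0.34, adjusted p 0.146). Atg10, the other low gene, which attaches Atg12 to Atg5, had the widest error of the 32 (-0.80 ± 0.80). The activating enzyme gene Atg7 (0.24 ± 0.19), the protease gene Atg4b (-0.23 ± 0.19) and the genes of the ligase-like complex, Atg5 (0.03 ± 0.21), Atg12 (-0.22 ± 0.20) and Atg16l1 (0.27 ± 0.20), did not pass. Beside Stx17, the HOPS tether genes Vps11 (0.22 ± 0.19) and Vps18 (0.06 ± 0.17) had groups that did not overlap, at 53.8 to 76.5 against 78.7 to 107 CPM and 64.6 to 70.9 against 71.2 to 101 CPM, but neither passed. In all, 5 of 32 members were higher and 4 lower in Npc1-/- vehicle cerebellum without overlap of the groups, beside 11% and 9.59% of all tested genes, which again set the members near the background.

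**Figure D2:**
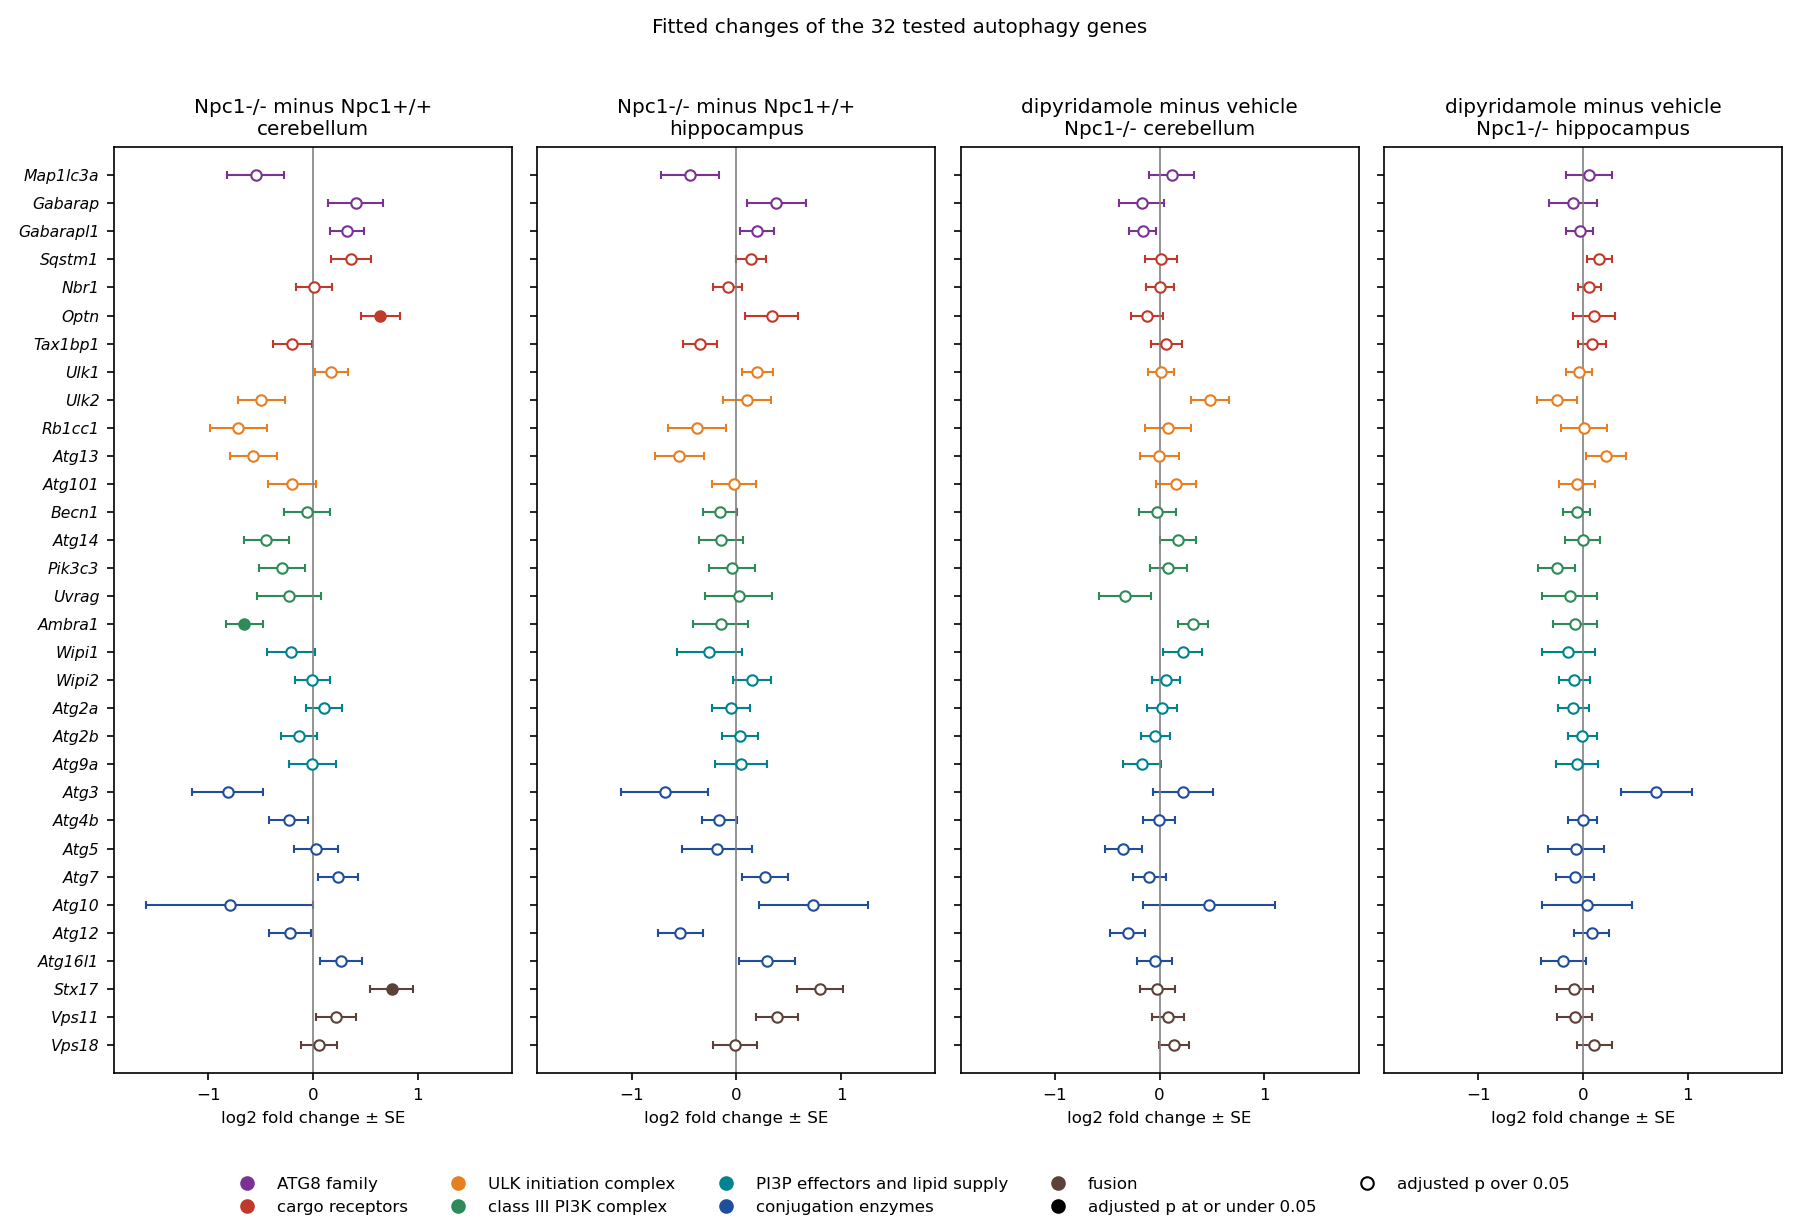
Fitted log2 fold change with SE (x axis) of the 32 tested members, ordered and coloured by role, for genotype and for dipyridamole in each tissue. Filled points passed an adjusted p of 0.05. Only Optn, Stx17 and Ambra1 in the first panel are filled.

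The promoters of the members that passed in cerebellum are shown because these genes carry the genotype calls, with that of Atg3 for contrast, since it alone of the 28 members with a RefSeq entry holds the longer of the motifs searched. Each is the 150 bases before the RefSeq transcription start in GRCm38.p6, 5′ to 3′ on the gene's strand, and capitals mark the motif letters found. Optn is at chr2:5064118-5064267 (minus strand), Stx17 at chr4:48124769-48124918 (plus), Ambra1 at chr2:91729988-91730137 (plus) and Atg3 at chr16:45158679-45158828 (plus).
Optn: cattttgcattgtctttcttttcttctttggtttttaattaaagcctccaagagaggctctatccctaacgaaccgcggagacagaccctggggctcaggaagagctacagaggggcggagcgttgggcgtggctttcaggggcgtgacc
Stx17: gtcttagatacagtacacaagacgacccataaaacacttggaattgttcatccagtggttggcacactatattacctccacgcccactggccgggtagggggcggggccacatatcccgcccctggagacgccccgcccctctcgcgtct
Ambra1: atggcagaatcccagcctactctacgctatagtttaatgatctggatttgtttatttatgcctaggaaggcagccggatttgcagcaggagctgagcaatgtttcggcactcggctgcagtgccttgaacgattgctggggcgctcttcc
Atg3: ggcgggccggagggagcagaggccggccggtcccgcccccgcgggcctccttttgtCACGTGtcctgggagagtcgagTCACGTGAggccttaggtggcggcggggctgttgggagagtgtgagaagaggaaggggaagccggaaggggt

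The motifs were CACGTG, the E-box core, and TCACGTGA, the central letters of the CLEAR element bound by TFEB and its relatives. Both were searched on both strands of RefSeq windows of 300 bases, from 250 before to 50 after a start, and every TCACGTGA contains a CACGTG. An entry existed for 28 of the 35 members. CACGTG was in 7.15% of 32851 windows over all genes and in 12.9% of the 31 windows of these members, 1 window each of Atg14, Atg3, Atg5 and Atg7. TCACGTGA was in 0.974% of all windows and in 3.23% of the members' windows, 1 window of Atg3, where it begins 72 bases before the start, with a further CACGTG at 94 bases. The windows of Optn, Stx17 and Ambra1 held neither run of letters, which says only that these letters are not in these windows.

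In the hippocampus no member passed the genotype comparison, where 1.62% of all tested genes did (1.02% higher and 0.597% lower). By edgeR 3 of 32 members had an unadjusted p under 0.05, beside 12.3% of all tested genes, and DESeq2 called 1, Stx17 (adjusted p 0.0295). Stx17 had the smallest p, with a fitted log2 fold change of 0.80 ± 0.22 close to its cerebellar value and an adjusted p of 0.109. It stood at 20.7, 29.5, 21.5 and 22.2 CPM in Npc1+/+ and at 41.5, 28.2, 41.5 and 41.6 CPM in Npc1-/- vehicle hippocampus. Npc1-/- replicate 2 lay apart from the other 3, inside the Npc1+/+ range, and without it the adjusted p was 0.0488. Atg12 was next, at 38.6, 42.0, 44.9 and 30.8 CPM in Npc1+/+ and 21.8, 33.8, 27.8 and 26.9 CPM in Npc1-/- vehicle mice (-0.53 ± 0.21, adjusted p 0.319). Its groups overlapped, and no member had groups without overlap in this comparison, beside 6.26% of all tested genes higher and 5.54% lower.

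The remaining roles were spread around 0 in hippocampus, with a median of -0.01 over the 32 members and -0.01 over all tested genes. Optn stood at 13.8, 18.5, 21.6 and 22.1 CPM in Npc1+/+ and 32.9, 23.9, 21.8 and 23.1 CPM in Npc1-/- vehicle mice, and the groups overlapped (0.34 ± 0.25, adjusted p 0.640). Ambra1 had 65.4, 61.6, 52.0 and 44.7 CPM and 29.7, 64.9, 51.6 and 51.8 CPM, a fitted change of -0.15 ± 0.26. Its lowest library was Npc1-/- replicate 1 and its next lowest an Npc1+/+ library. Of the other receptors Sqstm1 had 0.14 ± 0.14, Nbr1 -0.08 ± 0.14 and Tax1bp1 -0.35 ± 0.16. In the ULK complex Atg13 had -0.54 ± 0.23 and Rb1cc1 -0.37 ± 0.27, values with the sign they had in cerebellum, while Ulk2 had 0.10 ± 0.23.

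Whether the genotype effect differed between tissues was tested within animals, as the hippocampal minus the cerebellar change. No member of 32 passed, where 1.15% of 13436 genes did (0.61% higher and 0.543% lower). No member reached an unadjusted p under 0.05 by edgeR, and DESeq2 called none. The smallest p values were those of Ulk2, with a difference of 0.60 ± 0.34, and Ambra1, with 0.50 ± 0.29, at adjusted p of 0.684 and 0.694. Stx17 differed by 0.07 ± 0.26 and Optn by -0.29 ± 0.31. The call of Optn and Ambra1 in cerebellum and not in hippocampus was therefore not shown to be a difference between the tissues.

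Dipyridamole, compared with vehicle in Npc1-/- mice, was followed by no called change of any member in either tissue, as for all genes tested (0% in cerebellum and 0% in hippocampus). By edgeR 2 of 32 members had an unadjusted p under 0.05 in cerebellum, beside 2.32% of all tested genes, and none had one in hippocampus, beside 0.730%. DESeq2 called no member in either tissue. In cerebellum the 2 were Ulk2 and Ambra1. Ulk2 stood at 13.1, 11.3, 12.1 and 15.0 CPM with vehicle and 22.0, 19.1, 14.7 and 13.8 CPM with dipyridamole, and the groups overlapped (0.48 ± 0.18). Ambra1 stood at 125, 96.2, 84.1 and 98.1 CPM with dipyridamole, beside 70.5 to 98.6 CPM with vehicle (0.32 ± 0.14). Only the highest treated library, at 125 CPM, lay in the Npc1+/+ range, and the others lay in the vehicle range. The adjusted p was 0.9998 for Ulk2 and for Ambra1. The members that rose with genotype had fitted changes of -0.12 ± 0.15 (Optn) and -0.02 ± 0.17 (Stx17) with dipyridamole. The ratio of means of Stx17 had the opposite sign (0.09), as did that of 8 other members with dipyridamole in cerebellum.

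In the hippocampus Atg3 and Pik3c3 had the smallest p with dipyridamole. Atg3 stood at 1.69, 1.33, 1.76 and 2.03 CPM with vehicle and 2.41, 3.18, 2.15 and 3.68 CPM with dipyridamole. The groups did not overlap, on few counts, and the change was 0.70 ± 0.34 (adjusted p 0.9999). Pik3c3 had -0.25 ± 0.18. Sqstm1 was the other member whose groups did not overlap, at 621, 610.0, 591 and 536 CPM with vehicle and 632, 637, 712 and 688 CPM with dipyridamole, though the gap between the groups was narrow and the change small (0.16 ± 0.12). These 2 of 32 members, both higher, stood beside 0.636% of all tested genes higher without overlap, and no member was lower without overlap, beside 0.557%. In cerebellum no member had groups without overlap, beside 0.635% of genes higher and 0.573% lower. The effect of dipyridamole did not differ between tissues at the adjusted p for any member, as for all genes (0%), and Ulk2 had the smallest p by edgeR (difference -0.71 ± 0.28, unadjusted p 0.0197, 1 of 32 members under 0.05), followed by Atg12 (0.41 ± 0.24). DESeq2 called none.

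The dipyridamole-treated Npc1-/- mice were also compared with the Npc1+/+ vehicle mice, the same controls as in the genotype comparison, so the values are set side by side and are not independent of it. Optn and Stx17 were called in cerebellum, 2 of 32 members beside 14.4% of all tested genes (8.13% higher and 6.29% lower). Optn stood at 45.9, 51.4, 58.7 and 51.5 CPM in the treated cerebella, all above the Npc1+/+ libraries, with a change of 0.52 ± 0.16 (adjusted p 0.0391) beside 0.64 for vehicle. Stx17 stood at 25.0, 35.3, 37.0 and 43.9 CPM, with the lowest treated library inside the Npc1+/+ range, and a change of 0.73 ± 0.18 (adjusted p 0.0104) beside 0.75 for vehicle. Ambra1 had -0.34 ± 0.15 (adjusted p 0.160) beside -0.66 for vehicle. Neither call stood without treated replicate 4 (0.119 for Optn and 0.101 for Stx17). Both libraries of that mouse carry the same ion code in the labels, while every other library has a code of its own. Optn alone was lost without Npc1+/+ replicate 1, 2 or 4 or treated replicate 2 or 3.

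Several members lay apart from the Npc1+/+ cerebella in the treated mice without passing. Sqstm1 stood at 606, 634, 725 and 667 CPM, all above the Npc1+/+ libraries (0.37 ± 0.16, adjusted p 0.123), and Vps18 was also higher without overlap. Atg12 stood at 18.8, 21.1, 21.0 and 26.3 CPM, below the 29.1 to 40.3 CPM of Npc1+/+ (-0.52 ± 0.18, adjusted p 0.0561). Atg13 (-0.57 ± 0.19), Rb1cc1 (-0.63 ± 0.22), Atg5 (-0.31 ± 0.19) and Atg3 (-0.59 ± 0.28) were lower without overlap, with adjusted p of 0.0518 for Atg13 and 0.0678 for Rb1cc1. That gave 3 of 32 members higher and 5 lower without overlap, beside 13.4% and 12.5% of all tested genes. In the hippocampus no member passed, beside 2.68% of genes called (1.59% higher and 1.09% lower). Stx17 had the smallest p, at 36.4, 34.9, 32.0 and 44.5 CPM in treated mice, all above the Npc1+/+ libraries (0.72 ± 0.20, adjusted p 0.0739 by edgeR and 0.0192 by DESeq2). By edgeR 3 of 32 members had an unadjusted p under 0.05 there, the others being Atg12 (-0.45 ± 0.19) and Sqstm1 (0.30 ± 0.13). Sqstm1 and Stx17 were higher without overlap and Atg12 lower, beside 6.62% and 5.86% of all tested genes.

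More members passed between the tissues than between the genotypes, as did a larger share of all tested genes. In Npc1+/+ mice 9 of 32 members (28.1%) differed between hippocampus and cerebellum, paired by the animal numbers in the labels. Of these 4 were higher and 5 lower in hippocampus. Among 13436 tested genes 43.1% differed by edgeR (21.8% higher and 21.3% lower), a larger share than among the members. Atg101, of the initiation complex, was higher in hippocampus by a log2 difference of 1.10 ± 0.16, followed by Becn1 (0.60 ± 0.13), Gabarapl1 (0.44 ± 0.11) and Sqstm1 (0.31 ± 0.11). Ambra1 (-0.91 ± 0.16), Optn (-0.86 ± 0.17), Atg2b (-0.69 ± 0.12), Ulk1 (-0.38 ± 0.12) and Atg2a (-0.35 ± 0.11) were lower. The adjusted p was 0.0329 for Sqstm1 and 0.0140 or less for the other 8. The calls fell on every role with the exception of the conjugation enzymes (0 of 7) and the fusion genes (0 of 3 tested). By edgeR 2 of the 7 conjugation enzymes had an unadjusted p under 0.05. With so few genes in a role, these counts do not set the roles apart.

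On the scale of all 24 libraries, Atg101 stood at 15.2, 15.9, 22.5 and 14.9 CPM in the cerebella and 36.7, 35.8, 34.2 and 38.5 CPM in the hippocampi of the same Npc1+/+ mice in order. No cerebellum reached a hippocampus, and the third mouse had the highest cerebellar level. Within the PI3K complex the partners Becn1 and Ambra1 went opposite ways. Becn1 averaged 61.4 ± 8.75 CPM in cerebellum and 92.6 ± 7.83 CPM in hippocampus (SD, n = 4), and Ambra1 averaged 109 ± 14.0 and 58.3 ± 10.1 CPM. Ambra1 stood at 101, 105, 101 and 130.0 CPM in the cerebella and 68.9, 63.9, 54.2 and 46.2 CPM in the hippocampi, and Becn1 at 63.8, 67.6, 48.5 and 65.8 CPM and 85.8, 104, 90.0 and 90.9 CPM. In each of the 4 Npc1+/+ mice the cerebellum held more Ambra1 and less Becn1 than the hippocampus.

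Among receptors Optn and Sqstm1 likewise differed in direction. Optn stood at 35.2, 35.7, 42.5 and 29.2 CPM in cerebellum and 14.6, 19.2, 22.6 and 22.8 CPM in hippocampus. Sqstm1 stood at 420.0, 431, 555 and 476 CPM and 548, 537, 602 and 639 CPM, and its call was lost with library totals as the only scaling (adjusted p 0.105), without the animal block (0.0507), with no filter and without Npc1+/+ replicate 1, 2 or 4. Of the other calls, that of Ulk1 passed in 10 of 11 alternatives and was lost without Npc1+/+ replicate 3. The call of Atg2a passed in 9 of 11, with the loss of replicate 4 among the settings where it failed. Gabarapl1 stood at 649.9, 625, 545 and 615 CPM in cerebellum and 682, 869, 868 and 889 CPM in hippocampus, higher in hippocampus in each mouse and by the least in the first. The kinase gene Ulk1 stood at 117, 104, 132 and 108 CPM in cerebellum and 84.9, 93.1, 78.8 and 96.4 CPM in hippocampus. The lipid transfer genes were both lower in hippocampus, Atg2a at 122, 118, 107 and 113 CPM in cerebellum and 107, 94.3, 85.8 and 77.5 CPM in hippocampus. For Atg2b the values were 163, 149, 167 and 151 CPM and 84.4, 102, 101 and 106 CPM, with no overlap between the tissues.

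**Figure D3:**
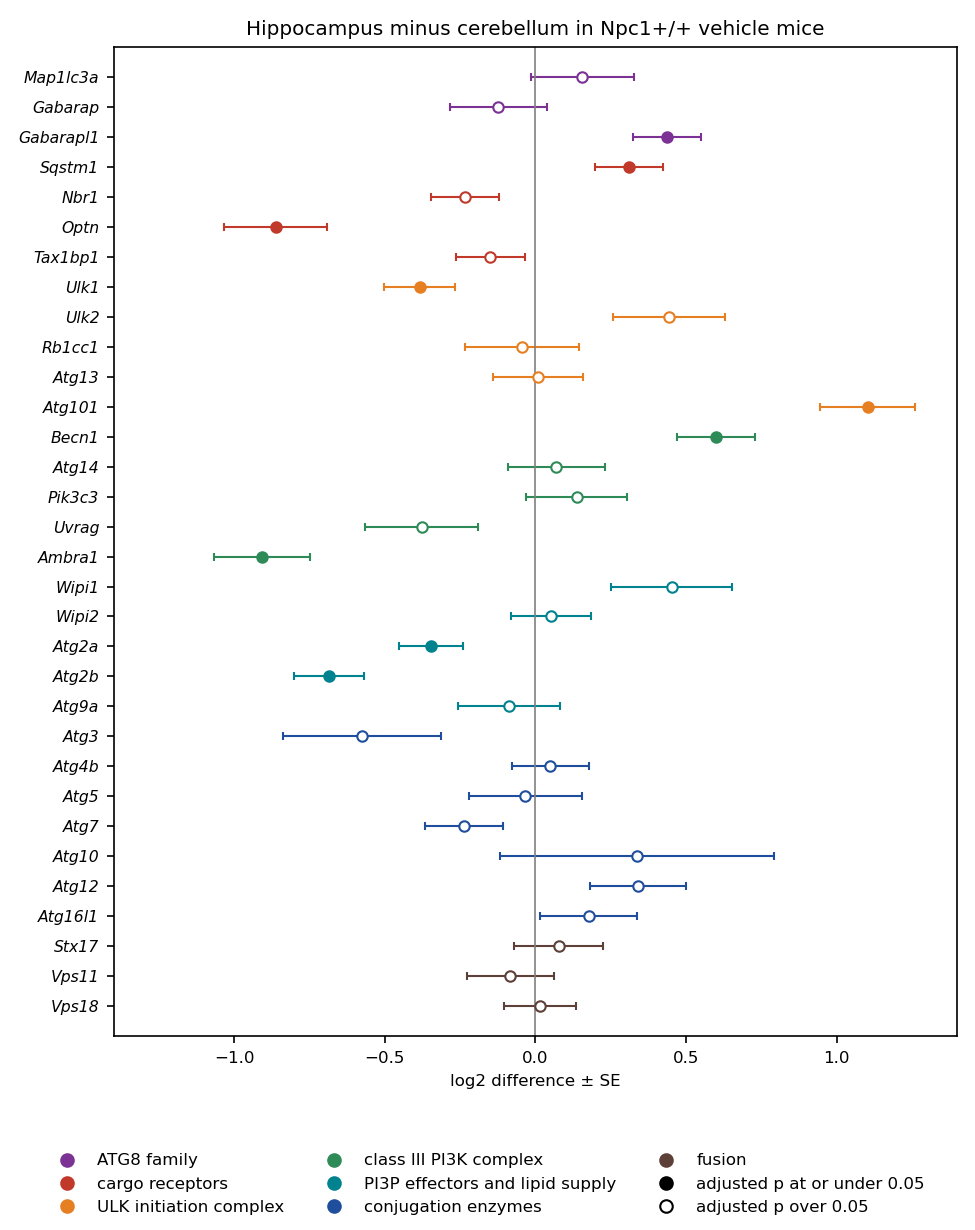
Fitted log2 difference with SE (x axis), hippocampus minus cerebellum, of the 32 tested members in the 4 Npc1+/+ vehicle mice, ordered and coloured by role. Filled points passed an adjusted p of 0.05: Gabarapl1, Sqstm1, Atg101 and Becn1 to the right of 0, and Optn, Ulk1, Ambra1, Atg2a and Atg2b to the left.

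The 8 Npc1-/- mice, which do not enter this contrast directly, were read the same way as a description. In all 12 mice of the 3 groups Atg101, Becn1 and Gabarapl1 were higher in hippocampus, and Ambra1, Optn, Atg2a, Atg2b and Ulk1 were lower. These genes were chosen by their call in the 4 Npc1+/+ mice, so only the other 8 mice lie outside that choice. The share of all tested genes with the same sign in all 12 mice was not computed. Sqstm1 was higher in hippocampus in the 4 Npc1+/+ mice and the 4 treated mice but in 1 of the 4 Npc1-/- vehicle mice. Nbr1 was lower in hippocampus in all 12 mice, by a log2 of -0.66 to -0.08, though its difference in the Npc1+/+ mice did not pass (-0.23 ± 0.11, adjusted p 0.108). Stx17, the member with the smallest p for genotype in both tissues, had no called difference between tissues (0.08 ± 0.15), with 23.0 ± 1.47 CPM in Npc1+/+ cerebellum and 24.4 ± 4.14 CPM in hippocampus.

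**Figure D4:**
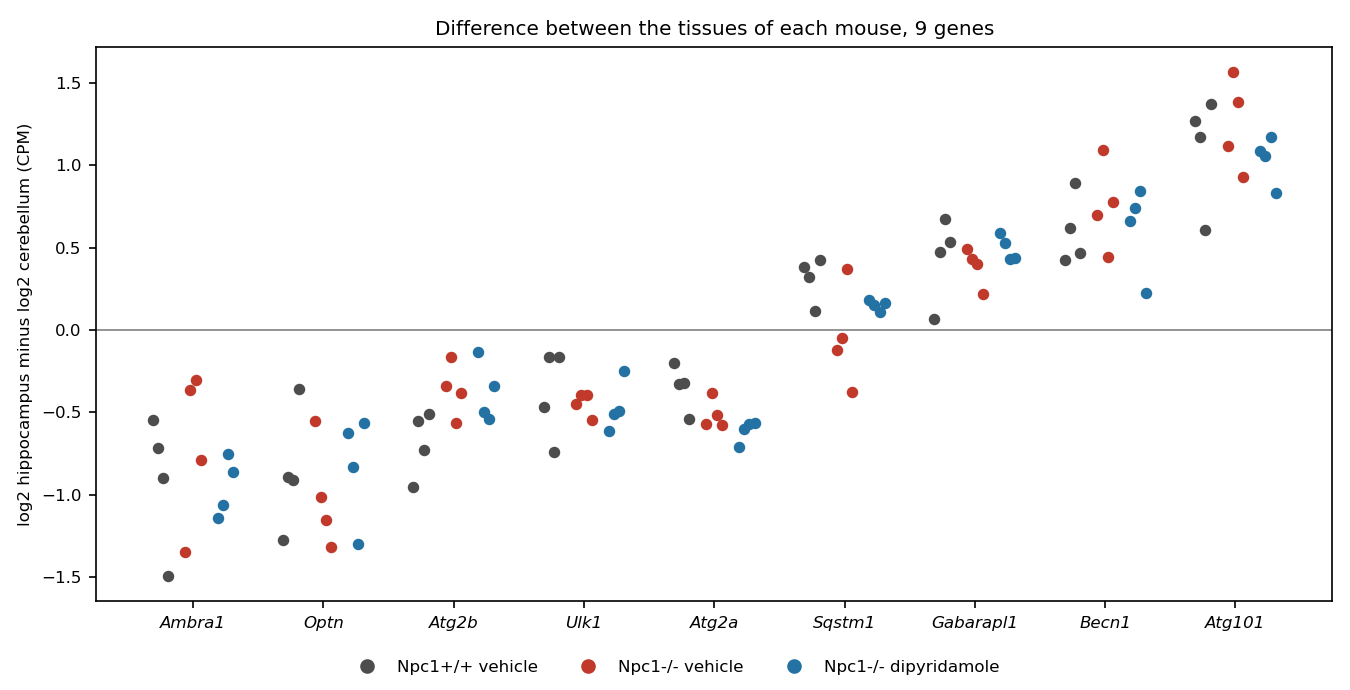
Log2 hippocampal minus log2 cerebellar CPM (y axis) of each of the 12 mice for the 9 members called between tissues in Npc1+/+ mice. Each point is 1 mouse, coloured by group. Points of 8 of the genes lie on a single side of 0 in all 12 mice, and those of Sqstm1 lie on both sides in the Npc1-/- vehicle group.

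Other autophagy genes, 60 in 4 lists of core machinery, cargo receptors, fusion and HOPS, and upstream control, gave 53 that could be tested. In cerebellum 3 rose in Npc1-/- vehicle mice and none fell, with a median of 0.02 over the 53. These 5.66% stood beside the 5.91% of all tested genes called higher and the 4.04% called lower, near the background. The 3 were Foxo1, a transcription factor that controls autophagy genes (1.21 ± 0.23), Atg9b, the paralog of Atg9a (1.17 ± 0.33), and Lamp2, a lysosomal membrane protein gene (0.62 ± 0.17). The same 3 were called in the treated mice against Npc1+/+ (Foxo1 1.13 ± 0.22, Atg9b 1.11 ± 0.28, Lamp2 0.62 ± 0.16), with the receptor gene Calcoco1 (0.65 ± 0.17) and, lower, the Rag GTPase gene Rraga, which gave 7.55% higher and 1.89% lower beside the 8.13% and 6.29% of all tested genes. In hippocampus none of the 53 passed for genotype, where Tfeb (-0.63 ± 0.22) and Sec62 (-0.59 ± 0.22) had the smallest p. Against Npc1+/+ the treated hippocampi had 1 of 53 lower, Mitf (-1.52 ± 0.34), or 1.89% beside 1.09% of all tested genes. With dipyridamole none passed in cerebellum (Fundc1 -0.32 ± 0.16 and Snap29 -0.37 ± 0.20 had the smallest p) or in hippocampus (Tfeb 0.33 ± 0.18 and Prkaa1 -0.28 ± 0.16).

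Between tissues in Npc1+/+ mice 5 of these 53 were higher in hippocampus and 13 lower, or 9.43% and 24.5% beside 21.8% and 21.3% of all tested genes. Foxo3 (-1.28 ± 0.14) and Tfeb (-0.94 ± 0.14), the gene of a master regulator of lysosomal and autophagy genes, were lower, and Foxo1 (1.10 ± 0.18) and Calcoco1 (0.79 ± 0.14) higher. No difference of the genotype effect between tissues passed among the 53, where Foxo1 (-1.23 ± 0.31, adjusted p 0.0765) and Calcoco1 (-0.60 ± 0.24) had the smallest p. For dipyridamole by tissue none passed either, with Lamtor4 (0.46 ± 0.18) and Snap29 (0.71 ± 0.30) first by p.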

How the data were processed

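Per the labels' protocols, the Ion AmpliSeq mouse transcriptome panel and an Ion S5 read total RNA. The reads passed, per the submitters' processing notes, through FastQC 0.11.9, Trimmomatic 0.39, STAR 2.7.9a (GRCm39) and featureCounts 2.0.3. What the authors deposited is an unnormalized count for each gene (GENCODE M34, unstranded, per the file headers). IDs without a symbol held 0.210% of counts.

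Counts were analysed with edgeR 4.0.16 (R 4.3.3): the quasi-likelihood test with robust dispersions, after TMM scaling and filterByExpr on the 3 groups, with all 12 libraries of a tissue in each fit and sex as a covariate. Comparisons between tissues used 24 libraries, a block for the animal and a term for sex in each tissue. Animal numbers in the labels give the pairing. Deviations of the libraries of 1 animal correlated from 0.104 to 0.484 in the 8 Npc1-/- mice, all above 0.1, and from -0.432 to 0.0761 in the 4 Npc1+/+ mice, none above 0.1. Within its group, no Npc1+/+ cerebellum correlated best with the hippocampus of its own mouse (0 of 4), while 6 of 8 Npc1-/- cerebella did. The tissue comparison rests on those 4 Npc1+/+ mice. Their pairing was taken from the labels and was not borne out by these correlations. Adjusted p is Benjamini-Hochberg over all genes tested, with 0.05 as the threshold. DESeq2 1.42.0 was an alternative. The scripts were tested on counts simulated without an effect of sex, which leaves the sex adjustment untested. The SE of a fitted change comes from edgeR's quasi-likelihood test, whose dispersions are estimated over the libraries, so it includes the spread between mice. Replicates of a group were further apart than sampling noise alone (chi-square divided by its degrees of freedom 6.99 to 46.2). Promoters were taken from RefSeq (GRCm38.p6).

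The members and lists were chosen with earlier results of these data known. All 35 members are named. Those past the adjusted p are given with the value of each library of the groups in the comparison that called them. Where none passed, the 2 with the smallest p are given. Of the other autophagy genes up to 4 per comparison are named, or up to 2 where none passed. Age goes wholly with genotype and no ion code occurs in both genotypes, so no split by either was made.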

Additional observations from a re-analysis of the deposited data

Results flagged for a closer look

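Total counts and the CPM of the 10 members called in any comparison and of Npc1 were searched, in 72 sets of 4 libraries, for 1 library far from the other 3. A gap larger than Dixon's 95% critical value was found in 8 sets, and chance gives about 1 in 20. In cerebellum Npc1-/- vehicle replicate 1 had 147 CPM of Atg2a (the others 132 to 133), and Npc1-/- vehicle replicate 4 had 63.6 CPM of Optn (52.2 to 53.8). Npc1+/+ replicate 4 had 135 CPM of Ambra1 (105 to 109), and Npc1+/+ replicate 3 had 23.4 CPM of Atg101 (15.5 to 16.5). In hippocampus Npc1-/- vehicle replicate 2 had 28.2 CPM of Stx17 (41.5 to 41.6), Npc1-/- dipyridamole replicate 4 had 115 CPM of Atg2b (84.6 to 86.7), and Npc1+/+ replicate 1 had 648 CPM of Gabarapl1 (833 to 859.9). The total count of the cerebellar library of Npc1-/- dipyridamole replicate 2 was 6117929, with 8418158 to 8810041 in the others.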

How the results depend on the processing

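The alternatives were no sex term, a replicate block, DESeq2, RLE factors, library totals only, no filter, a filter of 5 CPM in 4 libraries, only the groups compared, each library left out in turn and, chosen after seeing the data, female mice only. Of the single-gene changes recomputed, 478 kept their direction and side of the threshold, 41 lost it, 9 gained it and none reversed. Most of them were never called and had no call to lose, so these counts do not measure how stable the calls were. For genotype in cerebellum, Optn passed in 8 of 17 alternatives, Stx17 in 10 and Ambra1 in 11. Group means kept their value within 1 SD under RLE factors and library totals. For genotype in cerebellum 3 members were called, 0 with the replicate block, 0 with only the groups compared, 1 with female mice only (Rb1cc1, where a single Npc1-/- vehicle mouse is assumed to vary like the other groups) and 0 to 4 with a library left out. For genotype in hippocampus 0 were called, 1 without the sex term, 1 by DESeq2 and 0 to 1 with a library left out, each time Stx17. Treated against Npc1+/+ the cerebellum had 2, with 6 without the sex term, 0 with the replicate block, 5 by DESeq2, 4 with no filter and 0 to 2 with a library left out; the hippocampus had 0, with 1 without the sex term, 1 by DESeq2 and 0 to 0 with a library left out. Between tissues 9 were called, 8 without the block and 8 to 11 with a library left out. Both dipyridamole comparisons and both differences between tissues gave 0 throughout. The cause of these shifts was not tested. Replicate numbers did not pair the mice across groups: deviations of same-numbered libraries correlated above 0.1 in 1 to 2 of 4 pairs, and 1 to 2 of 4 libraries correlated best with their own number. The 4 mice of a group limit the precision, and at 3 to 53 counts a library Atg3 and Atg10 are limited by depth.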
